A study of Mus musculus with 54 samples.

Results

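CTCF, Rad21 and Smc3 peaks were followed across the 4 mouse Hox clusters and the sequence on either side of them. A peak was a member if its summit lay in mm10 chr6 52.10 to 52.30 Mb (HoxA), chr11 96.15 to 96.40 Mb (HoxB), chr15 102.90 to 103.06 Mb (HoxC) or chr2 74.64 to 74.80 Mb (HoxD), windows that hold the 38 Hox genes considered here. Peaks of the 22 CTCF libraries that overlapped by at least 1 bp were merged into 1 site, which gave 95 Hox sites of 68126 sites in the genome: 27 in HoxA, 29 in HoxB, 18 in HoxC and 21 in HoxD. Sites were numbered in genome order within each window (HoxA-1 to HoxA-27 and so on). The windows were fixed by position and not by any measured value.

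The study asked whether zinc finger 1 of CTCF, an RNA-binding part of the protein, is needed for chromatin looping in mouse ESCs (embryonic stem cells) and in the neural progenitors, NPCs, derived from them. In the rescue lines, made from E14 ESCs, both endogenous CTCF alleles carried a mAID-eGFP degron, OsTir1(F74G) was expressed from Rosa26, and a doxycycline-inducible Flag-Halo CTCF, either wild type (WT) or lacking zinc finger 1 (ΔZF1), sat at the Tigre locus. All rescue samples were treated for 24 hours with 5-Ph-IAA, an auxin analog, at 1 µM and with doxycycline at 1 µg/ml, so the WT rescue is a replaced, tagged CTCF and not the untouched protein. NPCs were harvested after a 2-day differentiation, and each rescue combination of cell and CTCF form had 4 CTCF, 2 Rad21 and 2 Smc3 libraries. A second set comprised NPCs from the parental E14 line and from lines with a homozygous eGFP and SV40 polyadenylation cassette after the first coding exon of Podxl (PodxlpA) or Grb10 (Grb10pA), with 2 CTCF and 2 Smc3 libraries each and neither degron nor rescue transgene. The paper describes the replicates as biological, but nothing in the labels said whether they were separate cultures. The p-values therefore measure only the spread between these libraries.

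Hox genes encode homeodomain transcription factors that give cells their position along the body axis, and the 4 clusters arose by duplication, so that genes with the same number (a paralogue group) are relatives. Within a cluster all listed genes are transcribed in the same direction, from the group 13 gene, used in the most posterior parts of the embryo, towards group 1. CTCF is a zinc-finger protein that binds a long, directional DNA motif and halts the ring-shaped cohesin complex, of which Rad21 and Smc3 are subunits. In Hox clusters CTCF sites are known for separating active from Polycomb-repressed genes.

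Depth differed widely between libraries. The CTCF rescue libraries held 5755 to 45941 peaks each, of which 9 to 67 had a summit in a Hox window, and their genome-wide background, worked out from the peak statistics, ranged from 0.392 to 2.39 fragments per base. In replicates 1 and 4 of every rescue group this background was at least 1.14, and in replicates 2 and 3 it was at most 0.905. The 6 E14, PodxlpA and Grb10pA CTCF libraries held 15505 to 28805 peaks with 15 to 30 in the Hox windows. The plot of sites called by library shows that the surplus sites of the libraries with many calls were mostly sites that few other libraries called.

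**Figure D1:**
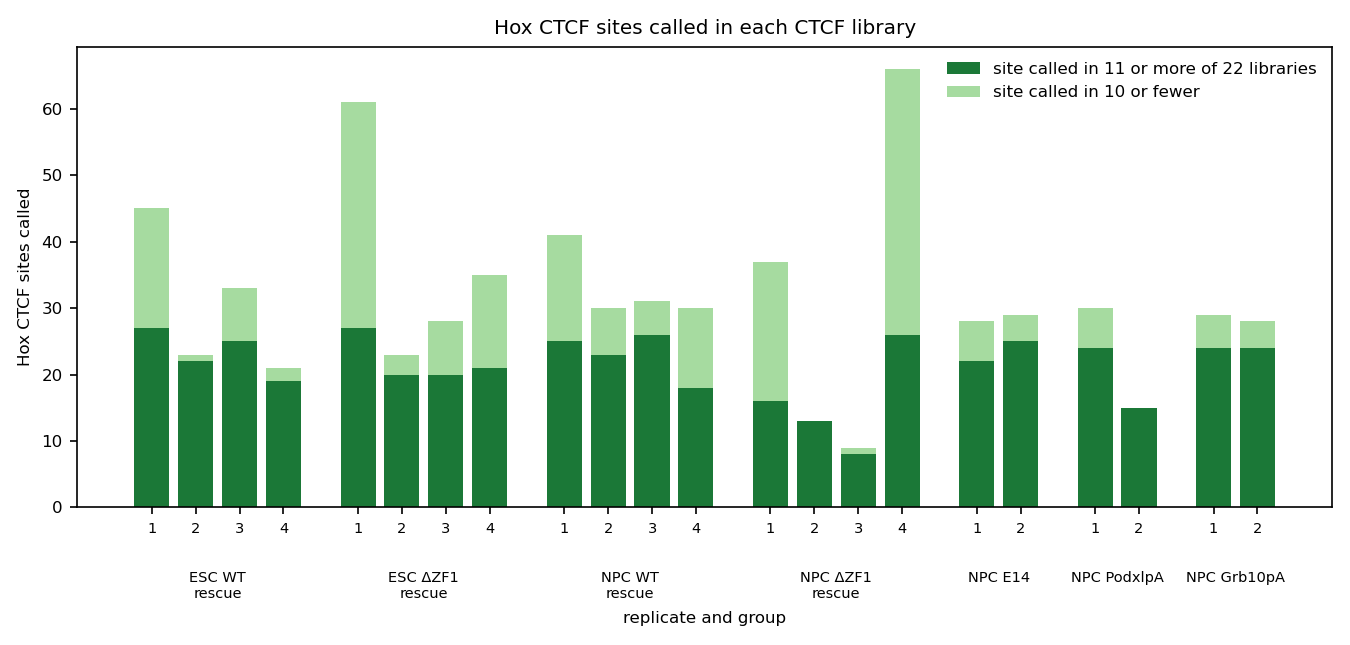
Number of the 95 Hox CTCF sites called in each CTCF library (bars, y axis), by replicate and group (x axis), split into sites called in 11 or more of the 22 libraries (dark) and the rest (light). The dark part spans 8 to 27 sites and the light part 0 to 40, with the most light sites in replicate 4 of the NPC ΔZF1 rescue.

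Of the 95 Hox sites, 27 were called in at least 11 of the 22 CTCF libraries and are termed recurrent here, 6 in HoxA, 10 in HoxB, 4 in HoxC and 7 in HoxD. This was 28.4% of the Hox sites, against 28.0% of all sites. Only 5 sites were called in all 22 libraries (5.26%, against 2.76% of all sites): HoxA-13, 57 bp upstream of the Hoxa5 start, HoxA-16 between Hoxa7 and Hoxa9, HoxB-6 in the long gap between Hoxb13 and Hoxb9, HoxC-8, 220 bp upstream of the Hoxc10 start, and HoxD-1, beyond Hoxd13 in the untranslated region of the neighbouring homeobox gene Evx2. A further 22 sites were called in 11 to 21 libraries, 13 in 6 to 10 and 55 in 5 or fewer, including 24 called once. Of the recurrent sites, 24 lay between the outermost Hox transcripts of their cluster and 3 beyond them, all 3 on the group 13 side: HoxA-25, HoxD-1 and HoxD-4. Inside the windows, no recurrent site lay beyond the lowest-numbered gene of any cluster. Sequence past the windows was not looked at.

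**Figure D2:**
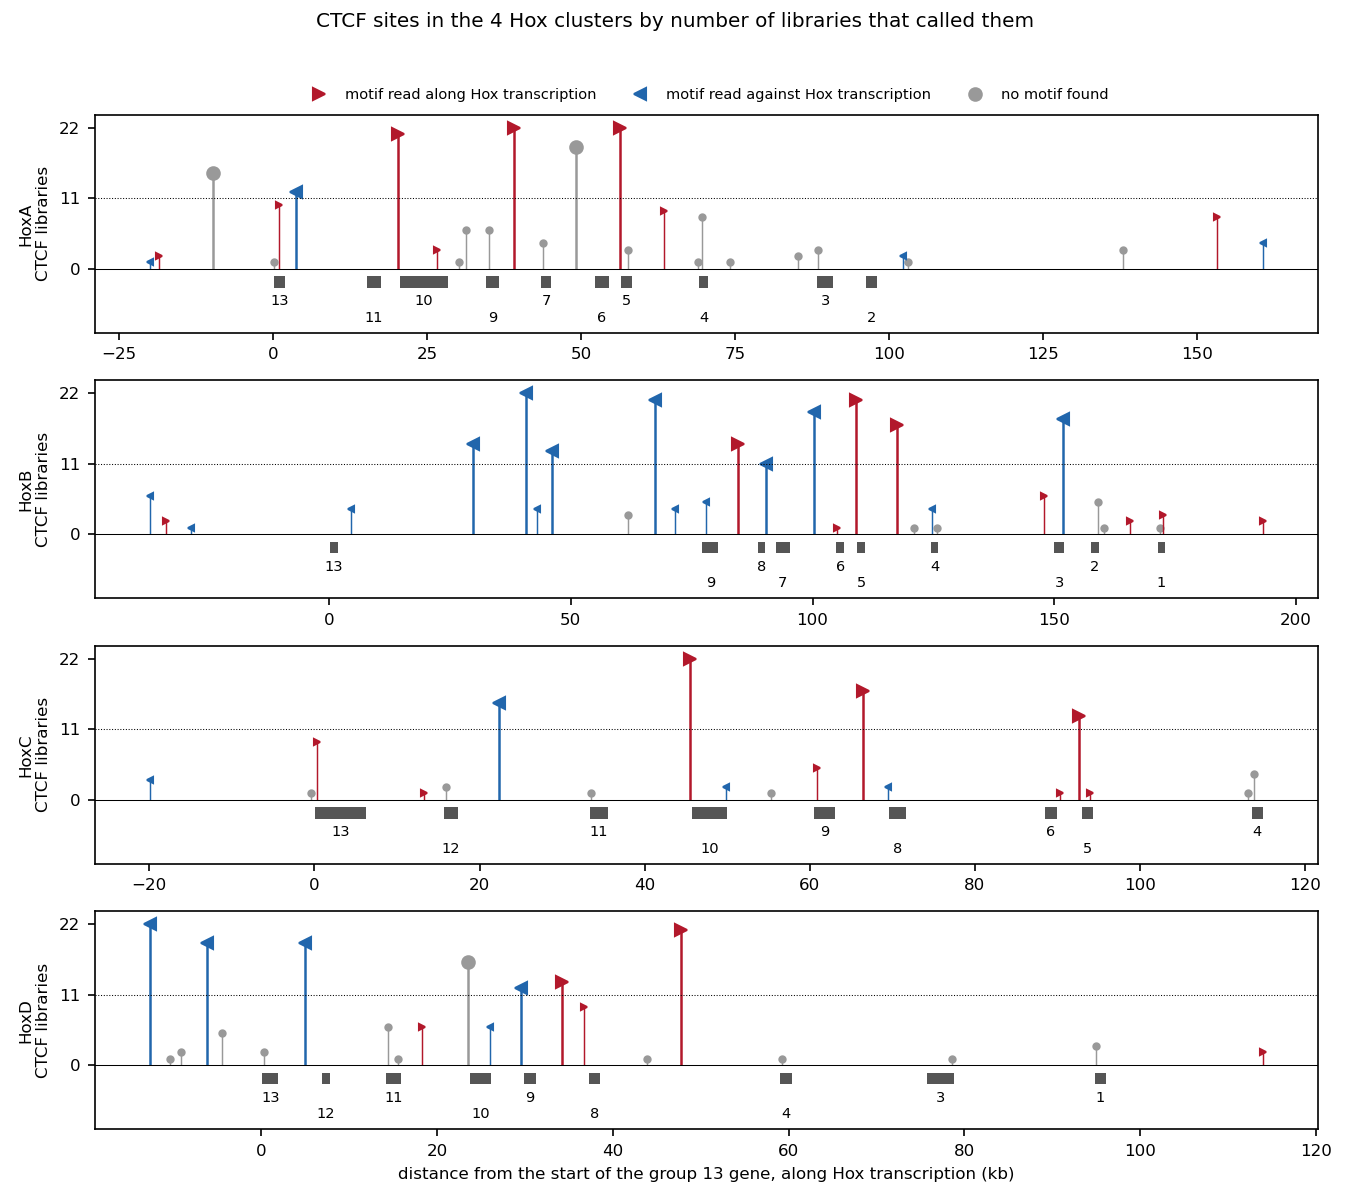
Position of the 95 CTCF sites in the 4 clusters, in kb from the start of the group 13 gene along the direction of Hox transcription (x axis), against the number of CTCF libraries, of 22, that called each (y axis). Grey boxes are coding spans with the paralogue number, arrowheads give the direction of the CTCF motif, and grey dots have none. The 9 recurrent sites on the group 13 side that have a motif all point against transcription. The line between the sides was drawn after the directions were seen.

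Some recurrent sites stood at matching places in different clusters. These places were not set in advance, and how often sites would match by place was not worked out. Other recurrent sites, among them HoxA-14, HoxB-15, HoxB-18, HoxB-23 and HoxD-17, fall outside the sets described here. Just upstream of the start of the group 5 gene lay HoxA-13 (Hoxa5, 57 bp), HoxB-17 (Hoxb5, 267 bp) and HoxC-15 (Hoxc5, 289 bp), called in 22, 21 and 13 libraries. HoxD has no group 5 gene. At the start of the group 10 gene lay HoxA-21 (308 bp into Hoxa10, in its untranslated region), HoxC-8 (220 bp upstream of Hoxc10) and HoxD-11 (136 bp upstream of Hoxd10), called in 21, 22 and 16 libraries. Between the group 9 and group 8 genes lay HoxB-13, HoxC-12 and HoxD-14, called in 14, 17 and 13 libraries. HoxA has no group 8 gene, and HoxA-16 sat between Hoxa9 and Hoxa7, a gap that covers both sides of group 8. The gap between Hoxb13 and Hoxb9, where HoxB lacks groups 10 to 12, held 4 recurrent sites, HoxB-5, HoxB-6, HoxB-8 and HoxB-10.

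A CTCF motif of 19 positions was derived from the 1878 sites outside the windows that were called in all 22 libraries, and each site was searched on both strands within 50 bp of its median summit at a score that 5% of windows 1000 bp away reached. The motif was found at 24 of the 27 recurrent Hox sites (88.9%, against 91.9% of recurrent sites in the genome) and at 33 of the other 68 (48.5%, against 71.0%). The 3 recurrent sites without a match were HoxA-14, HoxA-25 and HoxD-11. The sequences of 3 sets follow, each from RefSeq GRCm38.p6 (the mm10 coordinates), read 5′ to 3′ along the strand of the motif, with the 19 motif bases in capitals and 10 flanking bases on each side. The first set holds the sites just upstream of the group 5 genes, shown because they occupy the same place in 3 clusters.

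HoxA-13, chr6:52204645-52204683, minus strand: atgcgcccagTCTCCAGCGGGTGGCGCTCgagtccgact
HoxB-17, chr11:96303232-96303270, plus strand: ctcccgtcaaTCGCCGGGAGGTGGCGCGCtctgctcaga
HoxC-15, chr15:103013689-103013727, plus strand: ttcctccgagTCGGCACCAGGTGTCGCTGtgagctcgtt

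The second set holds 5 sites of all 4 clusters, shown because they share the letters CTCCA at bases 4 to 8 after the motif.

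HoxA-16, chr6:52221795-52221833, minus strand: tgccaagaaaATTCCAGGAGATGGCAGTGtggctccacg
HoxB-13, chr11:96278935-96278973, plus strand: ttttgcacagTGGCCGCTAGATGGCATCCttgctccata
HoxC-8, chr15:102966559-102966597, plus strand: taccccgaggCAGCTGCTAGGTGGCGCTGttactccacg
HoxD-7, chr2:74673164-74673202, minus strand: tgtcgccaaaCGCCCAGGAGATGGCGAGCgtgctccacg
HoxD-14, chr2:74702382-74702420, plus strand: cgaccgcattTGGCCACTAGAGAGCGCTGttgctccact

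These letters, looked for at that place on the motif strand only, stood at 5 of the 24 recurrent Hox sites with a motif (20.8%) and at 130 of 17543 recurrent sites of the genome with a motif (0.741%); they were picked after the Hox sequences had been read, so the 2 shares are a description. HoxA-16 and HoxD-7, in different clusters and different paralogue gaps, matched at 26 of the 39 printed bases, the most of any pair together with HoxA-22 and HoxC-12. The third set holds HoxD-1, the strongest CTCF site of the windows, of which the motif alone is given, HoxD-17, the site with the most cohesin calls, and the pair HoxA-22 and HoxC-12.

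HoxD-1 (motif), chr2:74655523-74655541, minus strand: CTGCCGCTAGGGGGCGCCC
HoxD-17, chr2:74715908-74715946, plus strand: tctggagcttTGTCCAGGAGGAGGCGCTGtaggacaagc
HoxA-22, chr6:52257108-52257146, plus strand: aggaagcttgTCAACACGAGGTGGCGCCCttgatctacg
HoxC-12, chr15:102987580-102987618, plus strand: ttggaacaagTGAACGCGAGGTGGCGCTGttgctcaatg

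The direction of the motif followed position in the cluster. More than 1 kb upstream of the group 10 gene (Hoxb9 in HoxB), that is towards group 13, all 9 recurrent sites with a motif were read against Hox transcription: HoxA-22, HoxB-5, HoxB-6, HoxB-8, HoxB-10, HoxC-6, HoxD-1, HoxD-4 and HoxD-7. From the group 10 gene towards group 1, 11 recurrent motifs were read along transcription and 4 against it, the 4 being HoxB-14, HoxB-15, HoxB-23 and HoxD-13. The division was drawn after the directions were seen. Sites that were not recurrent, which were not used to draw it, had 7 motifs against and 6 along transcription on the group 13 side, and 7 against and 13 along on the other.

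CTCF enrichment at the recurrent sites is given as the percentile of the peak's fold enrichment among all peaks of its library, from 0 for the weakest to 100 for the strongest. HoxD-1 was the strongest CTCF site of the windows in each of the 22 libraries, at 98.7 to 99.6 in the 4 ESC WT, 98.1 to 99.8 in the 4 ESC ΔZF1, 98.8 to 99.0 in the 4 NPC WT and 90.2 to 99.6 in the 4 NPC ΔZF1 libraries. Its lowest value, 90.2, was in replicate 3 of the NPC ΔZF1 rescue, where its summit held 21 fragments. Next came HoxA-13, with a median of 92.6 over the 22 libraries, HoxA-16 (89.5), HoxC-8 (87.3) and HoxD-17 (86.7, 21 libraries). At the other end, HoxB-14, in the untranslated region of Hoxb8, was called in 11 libraries and lay between 0.724 and 58.4. The weak recurrent sites rested on few fragments, 6 to 46 at the summit of HoxB-14 where it was called.

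**Figure D3:**
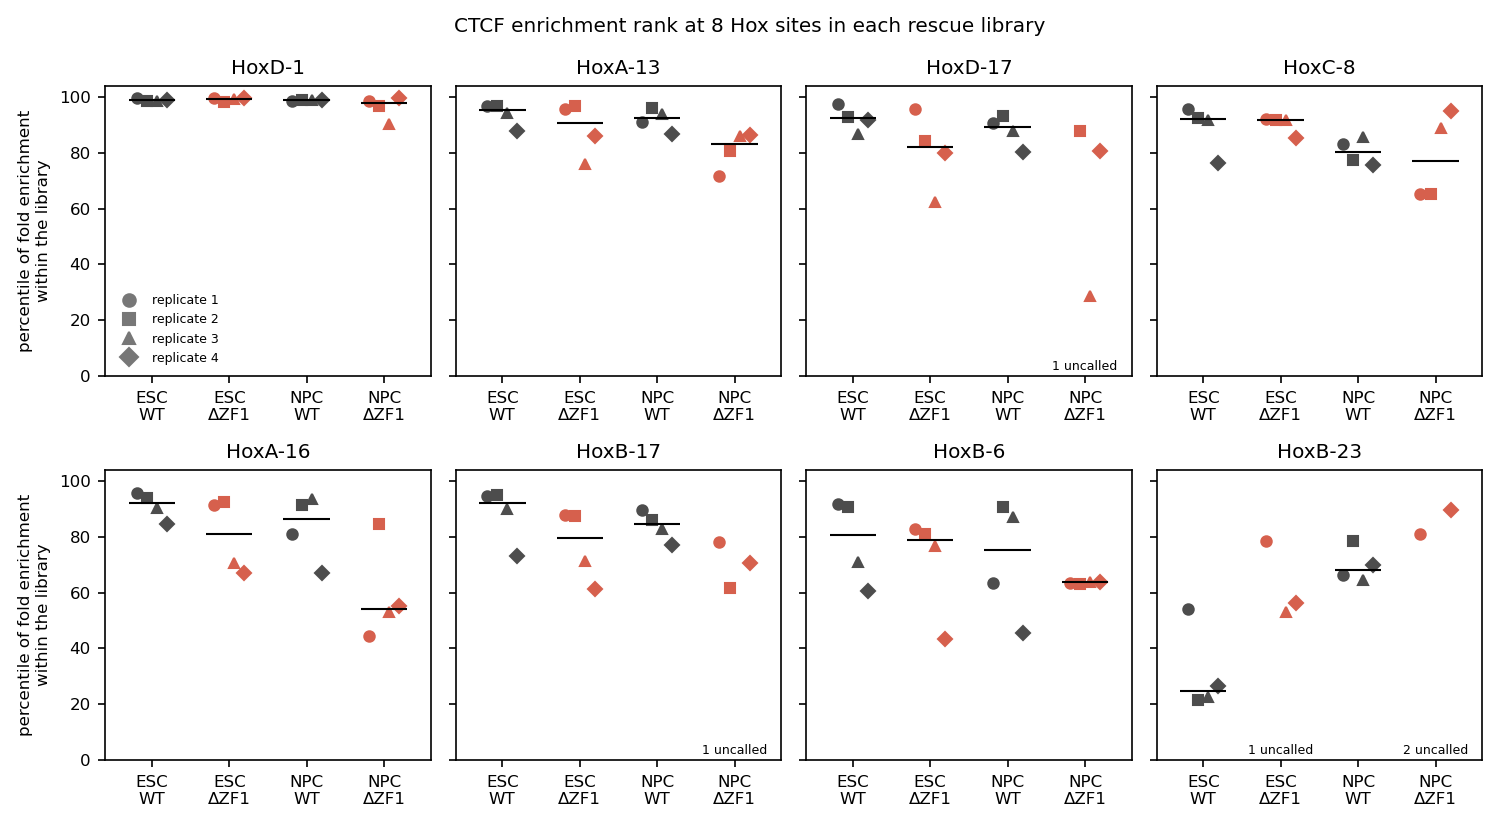
Percentile of fold enrichment within its library (y axis) at 8 recurrent Hox CTCF sites in the 16 rescue libraries, by group (x axis), with symbols for replicate number; bars are medians of groups called in all 4 libraries. HoxD-1 stays above 90 throughout, and at HoxB-23 all 4 NPC WT libraries lie above all 4 ESC WT libraries.

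For ΔZF1 against WT in ESCs, most Hox sites called in at least 3 of 4 WT libraries reached that count in ΔZF1. Of the 25 Hox sites called in at least 3 of 4 WT libraries, 5 were not called in at least 3 of 4 ΔZF1 libraries (20%), against 35.7% of 17493 such sites in the genome. The 5 were HoxA-22, HoxA-25, HoxB-8, HoxB-13 and HoxB-18, and none was absent from all ΔZF1 libraries. In the other direction, 7 of the 27 sites called in at least 3 ΔZF1 libraries were not called in at least 3 WT libraries, a share of 25.9%, against 17.5% of 13633. No Hox site was called in at least 3 more WT than ΔZF1 libraries, against 1% of the 55721 sites called in any of the 8 (1 Hox site was with equal peak numbers), and 1 was called in at least 3 more ΔZF1 than WT libraries, against 0.232%. That site, HoxA-17 in the coding exon of Hoxa9, was called in 0 of 4 WT and 3 of 4 ΔZF1 libraries, where it ranked at percentiles of 6.6, 2.83 and 1.37 with 24, 8 and 32 fragments. It was among the weakest peaks of each library, and the call of 3 more libraries was lost with summits within 150 bp merged, with a −log10 q of at least 5 and with equal peak numbers.

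No Hox site called in all 8 libraries of this comparison had percentiles that did not overlap between the groups, against 1% of such sites in the genome. Recurrent sites were called in fewer ΔZF1 libraries at 7 of 27 (25.9%, against 37.4% of recurrent sites in the genome) and in more at 4 (14.8%, against 14.9%).

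Relative enrichment was compared with limma on normal scores of the ranks, among sites called in all 8 libraries of a comparison. In ESCs 11 Hox sites could be tested and 0 passed an adjusted p of 0.05, against 2 of 5188 sites in the genome (0.0386%). By limma, 0 of the 11 had an unadjusted p under 0.05, and with replicate number as a block 4 did (HoxA-16, HoxB-17, HoxD-7 and HoxD-17, adjusted p of 0.16 to 0.261). HoxD-17, between Hoxd8 and Hoxd4, ranked at 97.6, 93.0, 86.7 and 91.7 in WT and at 95.6, 84.2, 62.3 and 79.9 in ΔZF1 replicates 1 to 4. Each ΔZF1 library lay below the WT library of the same number, but the groups overlapped, with a difference of -0.58 ± 0.27 normal score units (SE, 4 against 4 libraries, limma adjusted p = 0.599). HoxB-17, upstream of Hoxb5, ranked at 94.6, 94.9, 90.0 and 73.2 in WT and at 87.8, 87.5, 71.4 and 61.2 in ΔZF1. Its difference was -0.57 ± 0.28 (limma adjusted p = 0.643), and HoxA-16 gave -0.51 ± 0.28 (limma adjusted p = 0.69). These are the Hox sites of smallest p, and none passed in any setting tried.

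For ΔZF1 against WT in NPCs, fewer Hox sites met the count of 3 libraries, as in the rest of the genome. Of 24 Hox sites called in at least 3 of 4 WT libraries, 14 were not called in at least 3 ΔZF1 libraries (58.3%), against 63.3% of 16177. Recurrent sites were called less often in ΔZF1 at 19 of 27, equally often at 8 and more often at 0. In the genome 71.7% of recurrent sites were called less often and 3.9% more often, so the Hox share of 70.4% was near the background. The ΔZF1 libraries differed widely in this. NPC ΔZF1 replicates 2 and 3 held 10242 and 5755 peaks and called 13 and 8 of the 27 recurrent sites, whereas replicates 1 and 4 held 13639 and 33452 peaks and called 16 and 26. With replicate 3 left out, 3 of 24 Hox sites were not retained, against 32.2% of sites in the genome, and with replicate 2 left out 4 of 24, against 41%, since the count needed then fell to 2 of 3. None of the 10 Hox sites called in at least 3 ΔZF1 libraries was missing from the WT count, against 5.44% of 6271. A single Hox site was called in at least 3 more WT than ΔZF1 libraries, against 4.82% of the 49414 sites called in any, and none in at least 3 more ΔZF1 than WT, against 0.0263%.

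The single site was HoxB-18, between Hoxb5 and Hoxb4, 6515 bp upstream of the Hoxb4 start. It was called in all 4 NPC WT libraries, at percentiles of 80.4, 75.9, 43.7 and 46.9, and in ΔZF1 replicate 4 alone, at 52.7. In ESCs it was called in 4 WT and 2 ΔZF1 libraries. With equal peak numbers no Hox site met the difference of 3 libraries. Its motif match scored 6.13, near the threshold of 5.3.

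Only 5 Hox sites were called in all 8 NPC rescue libraries and could be tested. By limma 0 of the 5 passed, as did 0 of 2366 in the genome (0%), and 0 of the 5 had an unadjusted p under 0.05. With replicate number as a block, 1 of the 5 had an unadjusted limma p under 0.05, against 336 of 2366 in the genome. None passed with the block either. HoxC-8, upstream of Hoxc10, ranked at 83.3, 77.4, 85.6 and 75.8 in WT and at 65.3, 65.1, 88.9 and 95.0 in ΔZF1, with the ΔZF1 libraries on both sides of the WT range. HoxA-16 ranked at 81.1, 91.4, 93.5 and 66.9 in WT and at 44.5, 84.8, 53.2 and 55.1 in ΔZF1, which overlapped. HoxA-13, upstream of Hoxa5, ranked at 91.2, 96.2, 94.0 and 86.8 in WT and at 71.6, 80.6, 85.9 and 86.5 in ΔZF1. Its percentiles did not overlap, as at 7.14% of the 2366 sites in the genome. On the scale limma tested, the ranks among these 2366 sites, the groups overlapped and the difference was -0.21 ± 0.30 (limma adjusted p = 0.885). HoxD-1 differed by -0.02 ± 0.26 (limma adjusted p = 0.983). HoxB-6 was almost level in ΔZF1, at 63.2 to 64.0, inside the WT range of 45.6 to 90.6. The ΔZF1 effect was not found to differ between ESCs and NPCs at any of the 5 sites (limma interaction, adjusted p = 0.998 at each).

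Between WT NPCs and WT ESCs, most Hox sites called in at least 3 libraries of one cell type reached that count in the other. Of the 25 sites called in at least 3 ESC WT libraries, 4 were not called in at least 3 NPC WT libraries (16%, against 30.5% of 17493): HoxA-22, HoxB-8, HoxB-14 and HoxC-15. Of 24 sites called in at least 3 NPC WT libraries, 3 were not in the ESC count (12.5%, against 24.8% of 16177). No Hox site was called in at least 3 more libraries of either cell type, against 1.67% of 51427 sites for ESCs and 1.28% for NPCs. HoxC-15, upstream of Hoxc5, differed by 2 libraries, with calls in 3 of 4 ESC WT, 3 of 4 ESC ΔZF1, 1 of 4 NPC WT and 1 of 4 NPC ΔZF1 libraries, but it was called in 5 of the 6 E14, PodxlpA and Grb10pA NPC libraries.

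HoxB-23, in the coding exon of Hoxb3, ranked higher in NPCs. Its percentiles were 54.2, 21.7, 22.7 and 26.7 in the 4 ESC WT libraries and 66.5, 78.4, 64.4 and 69.8 in the 4 NPC WT libraries, and the groups did not overlap, as at 4.4% of the 5983 sites called in all 8 libraries (1 of the 14 Hox sites). The difference was 1.15 ± 0.24 normal score units (SE, n = 4 libraries each, limma adjusted p = 0.0672), which missed the threshold. With replicate number as a block, which these libraries share, the difference was the same and passed (limma adjusted p = 0.0408). Leaving out single libraries gave 0.988 to 1.293 with adjusted p of 0.0587 to 0.229. In all, 14 Hox sites were tested, 0 passed by limma and 2 had an unadjusted p under 0.05, while 15 of 5983 sites passed in the genome (0.251%), a count that rose to 172 with the block. In E14, PodxlpA and Grb10pA NPCs HoxB-23 was called in 5 of 6 libraries at 2.49 to 72.0, so its NPC WT level was not seen in every NPC library. In ESC ΔZF1 it was called in 3 libraries at 78.5, 53.1 and 56.3, and in NPC ΔZF1 in 2 at 81.2 and 89.7. HoxC-8, the other site with an unadjusted p under 0.05, moved the other way, from 95.6, 92.5, 91.9 and 76.3 in ESC WT to 83.3, 77.4, 85.6 and 75.8 in NPC WT (-0.56 ± 0.22, limma adjusted p = 0.24).

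The E14, PodxlpA and Grb10pA NPC libraries called 26 of the 27 recurrent sites at least once, a share not worked out over the genome. E14 NPCs called 22 of the 27 in both libraries and 3 in 1, Grb10pA NPCs 23 and 2, and PodxlpA NPCs 14 and 11. Replicate 2 of PodxlpA, with 15505 peaks, called 15 Hox sites, against 28 to 30 in the other 5 libraries. HoxD-13, 2 bp from the annotated start of Hoxd9, was called in 12 of the 16 rescue libraries but in 0 of these 6. In the NPC WT rescue it ranked at 89.2, 63.8, 46.5 and 88.2. In ESCs it ranked at 51.6, 45.3 and 43.2 in the 3 WT libraries and at 88.8, 80.9 and 91.4 in the 3 ΔZF1 libraries that called it. It entered the limma fit only when sites called in at least 0.5 of the libraries were tested (0.99 ± 0.56, adjusted p = 0.676). HoxB-14 was called in 1 of the 6, and HoxD-14, between Hoxd9 and Hoxd8, and HoxC-6, between Hoxc12 and Hoxc11, in 3. These libraries differed from the rescue in cell line, tag and library series at once, and the sources of a difference between the sets cannot be told apart.

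Cohesin lay on CTCF sites. All 64 Rad21 peaks of the windows overlapped a Hox CTCF site, against 91.9% of Rad21 peaks in the genome, as did 300 of the 311 Smc3 peaks (96.5%, against 95.8%). The other Smc3 peaks formed 9 places, 7 of them in a single library and none in 4 or more. An Smc3 peak in any group was found at 25 of the 27 recurrent sites (92.6%, against 92.0% of recurrent sites in the genome) and a Rad21 peak at 17 (63.0%, against 49.7%). Of the other 68 sites, 22 had an Smc3 peak and 1 a Rad21 peak in any library. HoxB-14 and HoxD-13 were the recurrent sites with neither.

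**Figure D4:**
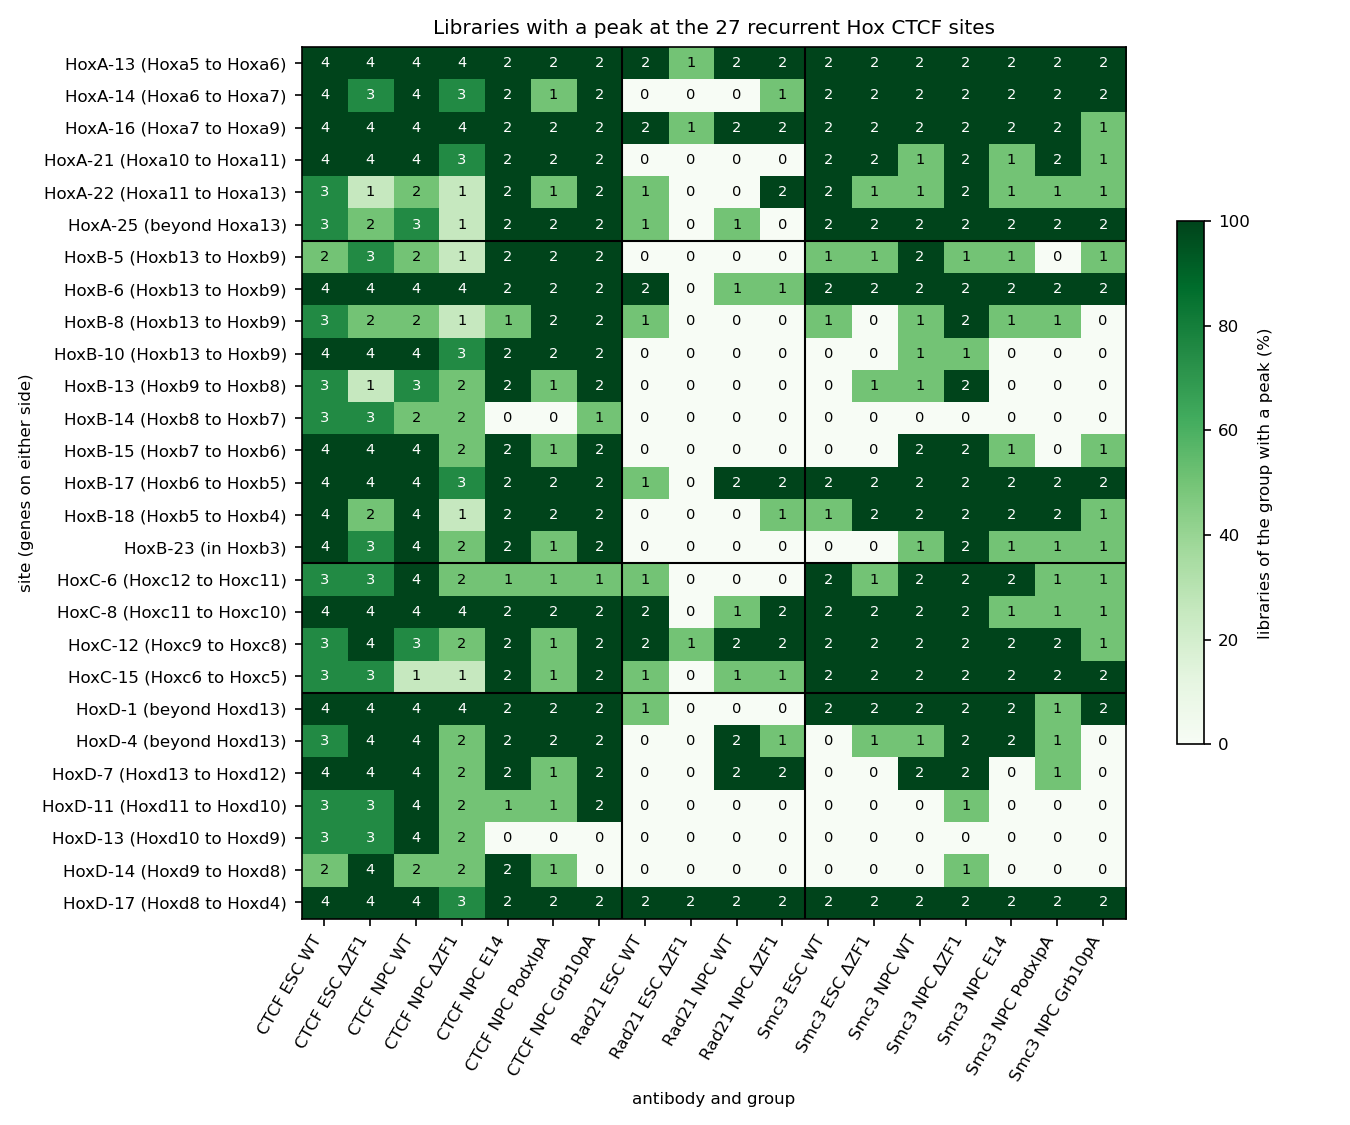
Peak calls at the 27 recurrent Hox CTCF sites (rows), as numbers of libraries, by antibody and group (columns); shading is the share of the group's libraries, which number 4 for CTCF rescue groups and 2 otherwise. HoxD-17 is the only row with a Rad21 peak in all 8 libraries, and HoxD-7 is among the 6 rows with cohesin peaks in NPC and not in ESC libraries.

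Cohesin calls differed widely among the strongest CTCF sites. HoxA-13 had Smc3 in 14 of 14 and Rad21 in 7 of 8 libraries, and HoxA-16 had Smc3 in 13 and Rad21 in 7. HoxC-8 had fewer, with Smc3 in 11 and Rad21 in 5. HoxD-17, between Hoxd8 and Hoxd4, had Smc3 peaks in all 14 Smc3 libraries and was the only site with a Rad21 peak in all 8 Rad21 libraries. Among Rad21 peaks it ranked at 80.5 and 95.0 in ESC WT, 55.5 and 85.9 in ESC ΔZF1, 62.2 and 89.9 in NPC WT, and 63.3 and 73.0 in NPC ΔZF1. HoxD-1, the strongest CTCF site, had Smc3 in 13 of 14 libraries but Rad21 in only 1 of 8, at percentile 23.8 in replicate 2 of ESC WT, the Rad21 library with the most peaks (10415). Rad21 was also rare at HoxA-21 (0 of 8 libraries), HoxA-14 (1) and HoxB-15 (0), which had CTCF in 21, 19 and 19 libraries and Smc3 in 11, 14 and 6. Both cohesin subunits were rare at HoxB-10, upstream of Hoxb9. It was called for CTCF in 21 of 22 libraries and for Smc3 in 2 of 14, with no Rad21 peak. Smc3 peaks in all 14 libraries were found at 7 recurrent sites: HoxA-13, HoxA-14, HoxA-25, HoxB-6, HoxB-17, HoxC-15 and HoxD-17. These included the 3 sites upstream of the group 5 genes. The share of recurrent sites in the genome with Smc3 in all 14 was not worked out.

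At 3 of the 27 recurrent sites, HoxB-17, HoxD-4 and HoxD-7, Rad21 was called in at least 3 more NPC than ESC libraries of 4 (11.1%, against 3.55% of recurrent sites in the genome), and at 0 in at least 3 more ESC libraries (against 0.304%). Among the 4 ESC Rad21 libraries were the 2 of fewest peaks in the series (1306 and 2347), and the part of this in the calls was not tested. HoxB-17, upstream of Hoxb5, had Rad21 in 1 of 4 ESC and 4 of 4 NPC libraries and Smc3 in all 14. HoxD-7, between Hoxd13 and Hoxd12, was called for CTCF in all 8 ESC rescue libraries but for Rad21 and Smc3 in none of the 8 ESC cohesin libraries. In rescue NPCs it had Rad21 in 4 of 4 libraries, at 42.3, 42.3, 55.2 and 44.1, and Smc3 in 4 of 4, at 52.2, 19.5, 62.3 and 80.4. In the E14, PodxlpA and Grb10pA NPCs it had Smc3 in 1 of 6 libraries, at 53.4 in PodxlpA replicate 2. Those Smc3 libraries held 10005 to 15626 peaks, and those lines had no Rad21 library. HoxD-4, between Evx2 and Hoxd13, had Rad21 in 0 of 4 ESC and 3 of 4 NPC libraries, and Smc3 in 1 of 4 ESC and 3 of 4 rescue NPC libraries. Cohesin peaks in NPC libraries and in no ESC library were found at 6 recurrent sites, HoxB-10, HoxB-15, HoxB-23, HoxD-7, HoxD-11 and HoxD-14 (22.2%, against 18% in the genome), and the reverse at 0 (against 0.797%). The series held more NPC than ESC cohesin libraries. Its largest Smc3 libraries were those of NPC ΔZF1 (30516 and 34104 peaks, against 8169 to 18023 in ESCs). The part of this in the 2 counts was not tested. Of the 6, only HoxD-7 had a Rad21 peak. HoxD-11 and HoxD-14 rested on 1 Smc3 peak each, in NPC ΔZF1 libraries (35.6 and 37.8). HoxB-10 rested on 2, at 4.54 in NPC WT and 14.3 in NPC ΔZF1. HoxB-15, between Hoxb7 and Hoxb6, had Smc3 in 0 of 4 ESC and 4 of 4 rescue NPC libraries, and HoxB-23 in 0 and 3. HoxC-12, between Hoxc9 and Hoxc8, ranked among Rad21 peaks at 37.7 and 50.7 in ESC WT and at 92.7 and 96.7 in NPC WT. Both NPC libraries stood above both ESC libraries at 1 of the 4 Hox sites with a Rad21 peak in all 4, as at 20.2% of 2024 such sites in the genome. With 2 libraries a group the smallest exact permutation p is 0.333, so none of these was tested.

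For ΔZF1 against WT, Rad21 peaks in ESCs lay on fewer Hox sites and Smc3 peaks did not. ESC WT had a Rad21 peak in at least 1 of 2 libraries at 13 Hox sites and ESC ΔZF1 at 4, but the ESC ΔZF1 Rad21 libraries were also the smallest of the series (1306 and 2347 peaks, against 3539 and 10415), and per 1000 peaks the Hox windows held 1.28 and 1.53 in ΔZF1 and 1.06 and 2.26 in WT. In NPCs the Rad21 counts were 12 for WT and 13 for ΔZF1. Smc3 was at 20 Hox sites in ESC WT and 22 in ESC ΔZF1, and at 33 in NPC WT and 41 in NPC ΔZF1. The NPC ΔZF1 Smc3 libraries held 30516 and 34104 peaks, against 27798 and 13710 for NPC WT. Smc3 was at 22 or 23 Hox sites in each of the E14, PodxlpA and Grb10pA groups. The part of library size in these counts was not tested.

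Most Hox genes carried a CTCF site, and fewer carried a recurrent one. Between 1 kb upstream of the start and the end of the transcript, 32 of the 38 genes held at least 1 site (84.2%, against 68.3% of coding genes), 11 held a recurrent site (28.9%, against 32.8%), and 3 (Hoxa3, Hoxa5 and Hoxc10) held a site called in all 22 libraries. Hoxa3 counts through its long transcript, which spans HoxA-13 and HoxA-14. The 6 genes with no site were Hoxa2, Hoxa6, Hoxa11, Hoxb7, Hoxb13 and Hoxd12. Of the other genes in the windows, both coding genes and 14 of 27 noncoding genes held a site. Sites fell in coding exons at 29 of the 95, but in only 1 recurrent case, HoxB-23. The share in coding exons was not worked out over the genome. Within 1 kb of an annotated start lay 40 of 95 Hox sites (42.1%), against 17.9% of all sites in the genome.

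Sites without the motif behaved differently from sites with it. The 57 Hox sites with the motif were called in a median of 8 libraries and the 38 without in a median of 2. Among the 16 rescue libraries, sites with the motif were called 244 times in replicates 1 and 4 and 169 times in replicates 2 and 3, and sites without it 92 and 21 times. Sites with the motif were called 103 times in ESC WT and 117 times in ESC ΔZF1 libraries, and 107 times in NPC WT and 86 times in NPC ΔZF1. Sites without the motif were called 19 times in ESC WT and 30 times in ESC ΔZF1 libraries, and 25 times in NPC WT and 39 times in NPC ΔZF1. In NPC ΔZF1 the 39 calls came as 13, 1, 0 and 25 in replicates 1 to 4, and in NPC WT the 25 came as 10, 4, 4 and 7, so the groups overlapped. The share of all peaks of a library with the motif moved with these counts, at 61.1%, 87.2%, 88.7% and 67.5% in NPC ΔZF1 and 76.1%, 80.3%, 87.8% and 69.5% in NPC WT. Its part in the Hox counts was not tested.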

How the data were processed

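The 44 ChIP-seq libraries (22 CTCF, 8 Rad21, 14 Smc3) were deposited as peak lists, and the 10 input libraries were not used here. The authors aligned reads to mm10 with Bowtie2, removed reads of mapping quality under 30, duplicates (Picard) and blacklisted regions, and called peaks per sample with MACS2 in paired-end mode at a q of 0.01. Versions of these tools are not given in the sources used here. The deposited files give a score per peak (not used), the fold enrichment, a ratio of the pileup to the local background, and p-value and q-value as −log10. As peaks hold only called positions, a site without a peak has no value.

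Overlapping peaks (at least 1 bp) of all CTCF libraries were merged. Positions among genes came from curated RefSeq transcripts of GRCm38.p6. Fragments at the summit and the background were recovered from fold enrichment and p under the MACS2 formulas, with whole fragments for 100% of the peaks of −log10 p up to 60 (tolerance 0.002). They describe depth and entered no test. Relative enrichment was tested with limma 3.58.1 (R 4.3.3, two-sided, Benjamini-Hochberg over all sites). The fit was tried on simulated data for ΔZF1 against WT in ESCs over 5188 sites, and no other comparison was simulated. Shifts of 2, 1 and 0.5 normal score units were recovered at 80.5%, 13.5% and 0% of changed sites. Of the calls made, 6.4%, 6.9% and 0% were at unchanged sites. The simulated libraries varied independently, unlike the real ones. In the data same-numbered libraries deviated together (correlations of 0.219 to 0.552 in every pair of the 3 comparisons). The main limma fits did not pair them, and fits with replicate number as a block were run as an alternative. Differences, SE and p-values given here come from the unpaired fits unless the block is named. Named sites were those called in at least 11 CTCF libraries, those with at least 3 more calls in one group, those past limma's threshold and cohesin sites without CTCF in at least 4 libraries (none). The windows, members and lists were chosen with earlier results of these data known. Other analyses used Python 3.11.15.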

Additional observations from a re-analysis of the deposited data

Results flagged for a closer look

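In 59 groups of 4 rescue libraries, formed by the percentile of a recurrent Hox site or the number of Hox peaks, 5 had a library far from the other 3, where chance alone flags about 1 in 20. HoxB-23 in ESC WT replicate 1 stood at percentile 54.2, above the other 3 libraries at 21.7 to 26.7. HoxB-6 in ESC ΔZF1 replicate 4 stood at 43.3, below 76.8 to 83.0. HoxC-8 in ESC ΔZF1 replicate 4 stood at 85.5, below 91.7 to 92.1. HoxD-7 in NPC WT replicate 3 stood at 35.0, below 86.0 to 88.3. NPC WT replicate 1 had 42 CTCF peaks with a summit in the Hox windows, against 30, 31 and 30 in the other replicates.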

How the results depend on the processing

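Counts of Hox sites not retained moved with the peaks that entered, and so did the number of sites they were taken from. For ΔZF1 against WT in ESCs (5 of 25), the count was 3 of 15 with equal peak numbers (11189 per library, genome-wide 26%). It was 1 of 20 in replicates 1 and 4 alone (19.1%) and 8 of 20 in replicates 2 and 3 alone (50.4%). With single libraries left out it was 2 to 12. Leaving out WT replicate 2 or 4 gave 12 and 11 of 33 (genome-wide 48.3% and 52.8%), and leaving out ΔZF1 replicate 3 or 4 gave 2 of 25 each (17.4% and 17%). For NPCs (14 of 24), the count was 6 of 11 with equal peak numbers (5755 per library, genome-wide 40.4%). It was 7 of 35 when 2 of 4 libraries sufficed (44.5%) and 4 of 25 in replicates 1 and 4 alone (33.8%). With single libraries left out it was 3 to 21. For WT NPCs against WT ESCs (4 of 25), the count was 1 of 15 with equal peak numbers (genome-wide 30.5%). It was 7 of 34 when 2 of 4 libraries sufficed (27.9%) and 2 of 20 in replicates 1 and 4 alone (26.9%). With single libraries left out it was 1 to 12. It was 12 of 33 without ESC WT replicate 2 or 4 (genome-wide 42.4% and 47.9%) and 1 of 25 without NPC WT replicate 4 (14.8%). Other merging and a −log10 q of at least 5 left these counts within 1.5 times. Removing a library lowers the number of libraries asked for, which by construction raises or lowers the count. The cause was not tested further.

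With the replicate block, by which libraries of the same number are paired, 1 Hox site, HoxB-23, passed between WT NPCs and WT ESCs (1.147), and no other Hox call changed. The number of Hox sites past limma's threshold was 0 in all other settings, those with single libraries left out included. Requiring both libraries of a group, Smc3 lay at 15 Hox sites in ESC WT, 14 in ESC ΔZF1, 19 in NPC WT, 29 in NPC ΔZF1, 13 in E14, 8 in Grb10pA and 11 in PodxlpA, and Rad21 at 6 in ESC WT, 1 in ESC ΔZF1, 7 in NPC WT and 8 in NPC ΔZF1. With either library left out, Rad21 counts were 8 and 11 in ESC WT, 2 and 3 in ESC ΔZF1, 8 and 11 in NPC WT and 9 and 12 in NPC ΔZF1, and Smc3 counts were 16 and 19 in ESC WT, 17 and 19 in ESC ΔZF1, 20 and 32 in NPC WT, 31 and 39 in NPC ΔZF1, 18 and 18 in E14, 15 and 18 in PodxlpA and 14 and 16 in Grb10pA. Leaving out libraries for cohesin was added after seeing the data, as were other settings for recurrent sites (26 or 27) and for the motif (19 to 24 of 27). Peak lists hold no value for uncalled sites, so a missing call at the shallowest library, with 5755 peaks, is not evidence of absent binding.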
